A study of Mus musculus with 6 samples.

Results

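Markers of 4 kinds of tissue other than epithelium were followed in microdissected mammary buds of Eda-/- mouse embryos. The 10 genes were chosen by name as textbook markers, and all 10 had a row among the 25949 probe sets of the series. For endothelium they comprised *Pecam1* (ENSMUSG00000020717_at), *Cdh5* (ENSMUSG00000031871_at) and *Kdr* (ENSMUSG00000062960_at), and for immune cells *Ptprc* (ENSMUSG00000026395_at), *Adgre1* (ENSMUSG00000004730_at) and *Cd68* (ENSMUSG00000018774_at). Skeletal muscle was represented by *Myod1* (ENSMUSG00000009471_at), *Myog* (ENSMUSG00000026459_at) and *Acta1* (ENSMUSG00000031972_at), and the neural crest by *Sox10* (ENSMUSG00000033006_at). Expression was measured on 6 mouse exon arrays, which carry probes along the exons of each gene. All embryos carried the Eda-/- genotype on a B6CBA background and were taken at E13.5, so that every control bud also lacked the Eda ligand. Buds from one side of each embryo were kept for 4 h without added protein (control) and those from the other side with recombinant Fc-Eda-A1 (Fc-Eda hereafter). Each array held a pool of about 20 buds from 5 to 6 embryos according to the labels, each condition had 3 arrays, and the embryos came from 3 litters. Arrays with the same replicate number were treated as a pair. The pools are a mixed tissue by design, since the dissection removed most but not all of the surrounding mesenchyme. The epithelial markers that define the bud could not be looked up, because no table at hand pairs the other identifiers with gene names.

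The bud epithelium of this stage sits in a mesenchyme that holds capillaries, macrophages and nerve endings, and muscle layers of the body wall lie beneath the skin. Pecam1 and VE-cadherin, the product of *Cdh5*, join endothelial cells to each other, and *Kdr* encodes the main signalling receptor for Vegf on those cells. *Ptprc* encodes CD45, a phosphatase on the surface of nucleated blood cells, whereas *Adgre1* (F4/80) and *Cd68* mark macrophages. Myod1 and myogenin are E-box binding transcription factors that commit and differentiate muscle precursors, and *Acta1* encodes skeletal muscle actin. Sox10 is a transcription factor of migrating neural crest cells, Schwann cells and melanoblasts, and it is also known from mammary epithelium, so that *Sox10* alone does not identify neural crest in these pools. In RNA from a pool, fewer cells of a type and less RNA per cell cannot be told apart.

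Upstream sequences are shown for the endothelial and muscle members, as far as the RefSeq promoter table of build GRCm38.p6 contains them. Within each of these tissues the members share their lowest and their highest array, as described below, but not the full order of the arrays. The table held 5 of the 10 members, of which 3 are endothelial or muscle genes and are printed, each as the 250 bases before a RefSeq transcript start, 5′ to 3′ on the strand of the gene. Capitals in *Myog* mark the E-box CANNTG, the letters that Myod1 and myogenin bind. The region is chr1:134289754-134290003 on the plus strand.
Myog: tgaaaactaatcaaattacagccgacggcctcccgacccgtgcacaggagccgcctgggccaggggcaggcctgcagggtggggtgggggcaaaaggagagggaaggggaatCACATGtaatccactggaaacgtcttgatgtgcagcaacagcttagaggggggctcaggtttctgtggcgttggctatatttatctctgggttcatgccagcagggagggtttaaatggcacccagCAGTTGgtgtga
In *Acta1*, at chr8:123894776-123895025 on the minus strand, capitals mark a CArG box, the binding letters of serum response factor.
Acta1: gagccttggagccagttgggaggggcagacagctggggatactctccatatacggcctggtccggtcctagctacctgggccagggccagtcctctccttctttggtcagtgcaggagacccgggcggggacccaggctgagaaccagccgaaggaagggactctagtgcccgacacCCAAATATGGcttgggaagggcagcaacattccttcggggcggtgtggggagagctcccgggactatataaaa
In *Kdr*, at chr5:75978456-75978705 on the minus strand, capitals mark GGAA on either strand, the core letters bound by Ets factors, many of which act in endothelium.
Kdr: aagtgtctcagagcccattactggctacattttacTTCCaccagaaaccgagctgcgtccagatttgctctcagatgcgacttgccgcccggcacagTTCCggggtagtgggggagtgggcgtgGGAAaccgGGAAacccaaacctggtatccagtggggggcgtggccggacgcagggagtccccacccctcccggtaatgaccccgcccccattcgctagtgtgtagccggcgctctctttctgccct
Both strands were searched, and none of the marked letters overlapped another motif searched. The E-box was found 2 times in the *Myog* window and 2 times in the *Acta1* window, and 66.2% of the 32851 windows of the table hold at least 1. The CArG box, present 1 time in *Acta1*, was found in 1.47% of all windows. GGAA occurred 4 times in *Kdr* and is present in 93.5% of all windows. The matches describe the letters only and were not set against the array values.

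Array values are on a log2 scale, and the number of arrays limits their precision. The control replicate 1 array stood apart over the whole table. Its interquartile range was 2.59, where the other 5 arrays lay between 2.81 and 2.96, and its median of 4.99 compared with 4.80 to 4.83 on the others. This shift depended on level. The difference between control 1 and the mean of controls 2 and 3 had a median of 0.28 among probe sets near a level of 3.92 and of -0.10 near 7.80. No detection call came with the values, so a low level is not read as absence. Probes differ in brightness, and levels of different genes are therefore not ranked against each other.

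Control 1 held the lowest value of the 3 endothelial genes and of *Sox10*, the muscle genes were highest on control 2 and lowest on control 3, and *Ptprc* had the smallest range. In all 10 members the range of the 3 replicate means was larger than the difference between Fc-Eda and control, as it was in 81.9% of all probe sets. After Fc-Eda treatment, 6 of the 10 members were higher in all 3 pairs, against 13.2% of all probe sets, and 0 were lower in all 3 pairs, against 15.3%. In limma with the pairs as a block, 0 of the 10 members and 0% of all probe sets passed a q-value of 0.05 in either direction. That fit therefore does not set the members apart from other probe sets. At an unadjusted p under 0.05 the same fit gave 2 members higher, *Kdr* and *Sox10*, against 2.73% of all probe sets, and 0 lower, against 3.33%. Without the block neither gene was past that level. The q-values of the members lay between 0.586 and 0.826. The same comparison by limma with an intensity trend and robust moderation and by a Cyber-T type test also passed 0 members, where 0.347% and 0.624% of all probe sets passed as higher and 0.0231% and 0.119% as lower.

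**Figure D1:**
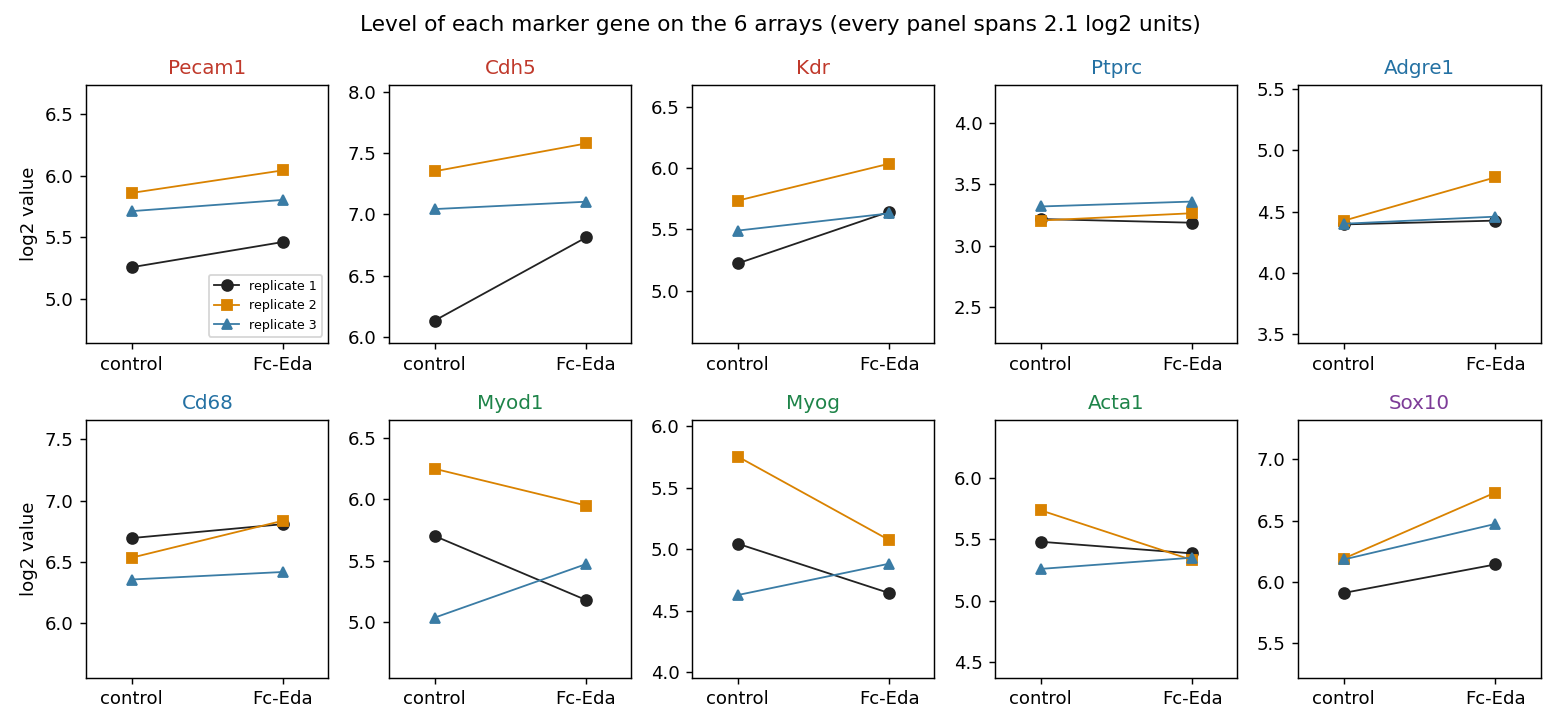
Deposited log2 value (vertical axis) of each marker gene in control and Fc-Eda pools (horizontal axis), with a line joining the 2 arrays of a replicate number. Title colours give the cell type: red for endothelium, blue for immune cells, green for skeletal muscle and purple for *Sox10*. The replicate 1 pair is lowest for *Pecam1*, *Cdh5* and *Sox10*, and the lines of the muscle genes cross.

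The endothelial genes were lowest on control 1, and the difference was largest for *Cdh5*. *Cdh5* was measured at 6.14, 7.35 and 7.04 in control replicates 1, 2 and 3, and at 6.81, 7.58 and 7.10 in the Fc-Eda replicates. Control 1 was 1.06 below the mean of the other controls on the log2 scale, so that the other controls were 2.09-fold above it. Of all probe sets, 0.0771% had a control 1 value as far or farther below the other controls. The Fc-Eda array of the same replicate was the next lowest, so both pools of replicate 1 lay under the other 4 arrays.

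*Pecam1* repeated this order at a smaller scale. Its control values were 5.26, 5.86 and 5.71, and its Fc-Eda values 5.46, 6.04 and 5.80. Both arrays of replicate 1 were again the lowest, and the other controls were 1.44-fold above control 1. *Kdr*, the Vegf receptor gene, was at 5.22, 5.73 and 5.49 in the controls and at 5.64, 6.04 and 5.63 with Fc-Eda. For *Kdr* control 1 was again the lowest array, 0.39 below the mean of the other controls, but its Fc-Eda partner was not below replicate 3. The gap between controls 2 and 3 was 0.15 for *Pecam1*, 0.31 for *Cdh5* and 0.24 for *Kdr*, smaller than the control 1 difference in each gene. A control 1 value as far or farther below the other controls was held by 1.53% of all probe sets for *Pecam1* and by 3.67% for *Kdr*. With 1 array against 2 the control 1 difference has no test.

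The endothelial differences on control 1 lay below the median difference of probe sets of like level. Probe sets in the level group of *Cdh5* had a median control 1 difference of -0.10, and those in the group of *Pecam1* and *Kdr* 0.03. *Sox10* (-0.28 against -0.04), *Myog* (-0.15 against 0.16), *Ptprc* (-0.05 against 0.24), *Adgre1* (-0.02 against 0.22) and *Acta1* (-0.02 against 0.07) also lay below their group medians. *Cd68* (0.25 against -0.08) and *Myod1* (0.06 against 0.03) lay above theirs. The cause of these differences was not tested. After cyclic loess normalization, which evens out such a shift, the control 1 difference was -0.97 for *Cdh5*, -0.55 for *Pecam1* and -0.42 for *Kdr*. As deposited, control 1 was the lowest of the 6 arrays for 5 of the 10 members, the endothelial genes, *Adgre1* and *Sox10*, against 20% of all probe sets. Among those with a mean level from 5 to 8, control 1 was lowest for 4 of 8 members and 34.7% of all probe sets. After cyclic loess normalization control 1 was the lowest array for *Ptprc* as well.

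**Figure D2:**
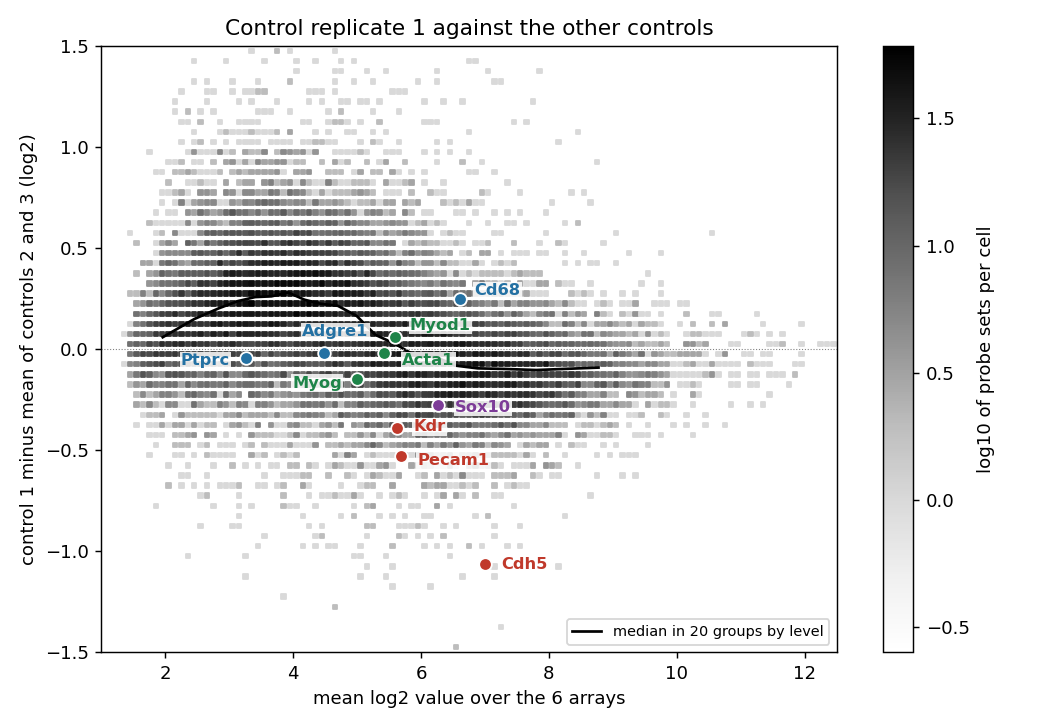
Control 1 minus the mean of controls 2 and 3 (vertical axis, log2) against the mean log2 value over the 6 arrays (horizontal axis), with all probe sets as grey cells by number and the marker genes as coloured points (red endothelium, blue immune, green muscle, purple *Sox10*). The black line is the median in 20 groups of probe sets by level. *Cdh5* at -1.06 lies near the lower edge of the cloud, and *Pecam1* and *Kdr* lie under the line at -0.53 and -0.39.

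With Fc-Eda, the endothelial genes were higher than in the paired control in every pair, yet none passed the test. The *Cdh5* differences were 0.68, 0.23 and 0.06 in pairs 1, 2 and 3, giving a mean of 0.32 ± 0.14 (SE, q = 0.731 in limma). For *Kdr* they were 0.42, 0.30 and 0.14, giving a mean of 0.29 ± 0.09 (SE, q = 0.653 in limma). The *Pecam1* differences were 0.21, 0.18 and 0.09, giving a mean of 0.16 ± 0.08 (SE, q = 0.751 in limma). Pair 1, which holds the low control array, gave the largest difference and pair 3 the smallest in all 3 genes. Without pair 1 the mean differences were 0.14 for *Cdh5*, 0.22 for *Kdr* and 0.14 for *Pecam1*. The part of the control 1 array in these differences was not otherwise tested. The control and Fc-Eda values of each endothelial gene overlapped.

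*Sox10* had the lowest q-value of the 10 members. Its control values were 5.91, 6.19 and 6.18, and its Fc-Eda values 6.14, 6.73 and 6.47. Controls 2 and 3 differed by 0.01, whereas control 1 was 0.28 below their mean. The Fc-Eda value was above the paired control by 0.23, 0.54 and 0.29. The mean of 0.35 ± 0.10 (SE), a 1.28-fold difference, had a 95% interval of 0.10 to 0.60 (q = 0.586 in limma). Both arrays of replicate 1 were the lowest, so that the groups overlapped. Leaving out pair 1 gave 0.41 (q = 0.507 in limma), short of the threshold, and leaving out pair 2 gave 0.26.

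**Figure D3:**
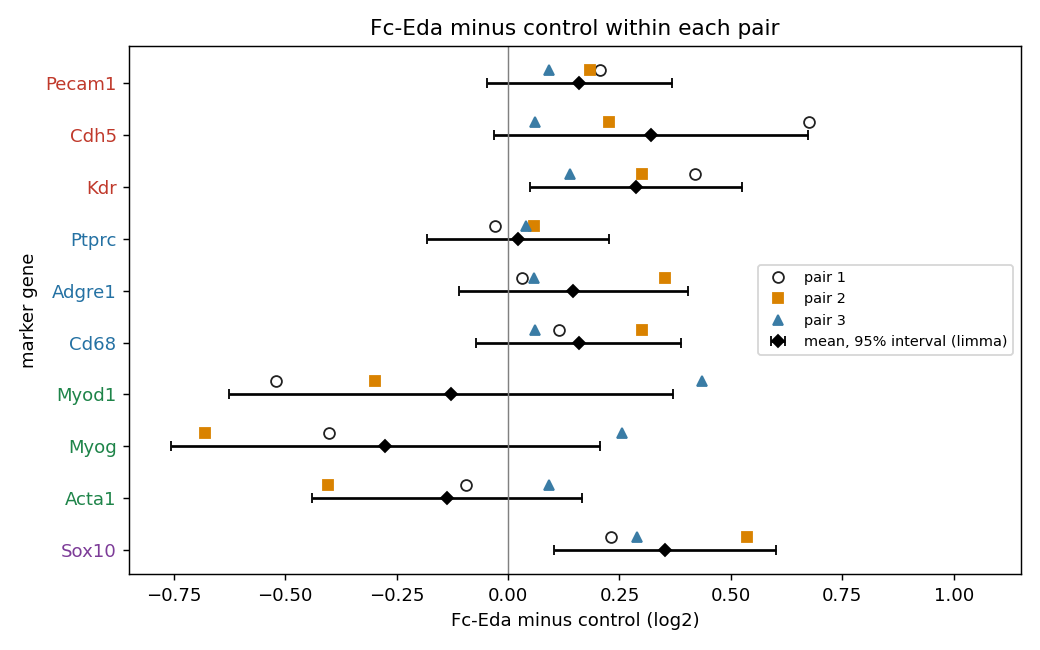
Fc-Eda minus control (horizontal axis, log2) for each marker gene (vertical axis), with coloured symbols for the 3 pairs and a black diamond for the limma mean with its 95% interval. Intervals of *Kdr* and *Sox10* lie above 0 before any adjustment, and the pairs of *Myod1* and *Myog* fall on both sides of 0.

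After *Cdh5*, the muscle regulators *Myod1* and *Myog* had the widest range over the control pools among the 10 members. *Myod1* was measured at 5.70, 6.25 and 5.04 in controls 1, 2 and 3, and at 5.18, 5.95 and 5.47 with Fc-Eda. *Myog*, which Myod1 activates during differentiation, was at 5.05, 5.75 and 4.63 in the controls and at 4.64, 5.08 and 4.88 with Fc-Eda. *Acta1* was at 5.48, 5.74 and 5.26 in the controls and at 5.39, 5.33 and 5.35 with Fc-Eda. Control 2 was the highest and control 3 the lowest of the 6 arrays in all 3 genes, an order found in 1.74% of all probe sets. Between these controls the level differed by 1.21 for *Myod1*, a 2.32-fold difference, and by 1.13 for *Myog*, a 2.18-fold difference. A difference over 1 in that direction was seen in 0.17% of all probe sets. Both the order and this cutoff were read from the values of these genes, so their shares test nothing. For *Acta1*, the structural gene, it was 0.48.

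Control 1 lay between controls 2 and 3 in the muscle genes. Its difference from the mean of controls 2 and 3 was 0.06 for *Myod1*, -0.15 for *Myog* and -0.02 for *Acta1*, each smaller than the gap between controls 2 and 3. After centring these differences were -0.11, -0.31 and -0.18, so that the sign for *Myod1* turned. The control with low endothelial values was therefore not one with extreme muscle values. Set against Fc-Eda, the 3 muscle genes were lower in pairs 1 and 2 and higher in pair 3, a pattern also read from their values. So were 14.9% of all probe sets, and 30.2% were lower in pairs 1 and 2 whatever pair 3 gave. Centring turned pair 1 of *Acta1* to 0.09 and left the order of the other two genes. The differences were -0.52, -0.30 and 0.44 for *Myod1*, and -0.40, -0.68 and 0.26 for *Myog*. For *Acta1* they were -0.09, -0.40 and 0.09. None passed the test, with means of -0.13 ± 0.50 (SD of the pair differences, n = 3) for *Myod1*, -0.28 ± 0.48 for *Myog* and -0.14 ± 0.25 for *Acta1* (q = 0.783, 0.751 and 0.756 in limma). The 95% interval for *Myog* ran from -0.76 to 0.21. The means changed with single pairs. Without pair 1 the *Myod1* mean turned to 0.068, with -0.21 for *Myog* and -0.16 for *Acta1*. Without pair 2 the mean was -0.07 for *Myog*, -0.0018 for *Acta1* and -0.04 for *Myod1*, and without pair 3 it was -0.54, -0.25 and -0.41, none past the threshold in limma. After centring it was -0.22, -0.08 and -0.07. Within Fc-Eda the *Acta1* values spanned less than in the controls, with an SD of 0.03 against 0.24.

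**Figure D4:**
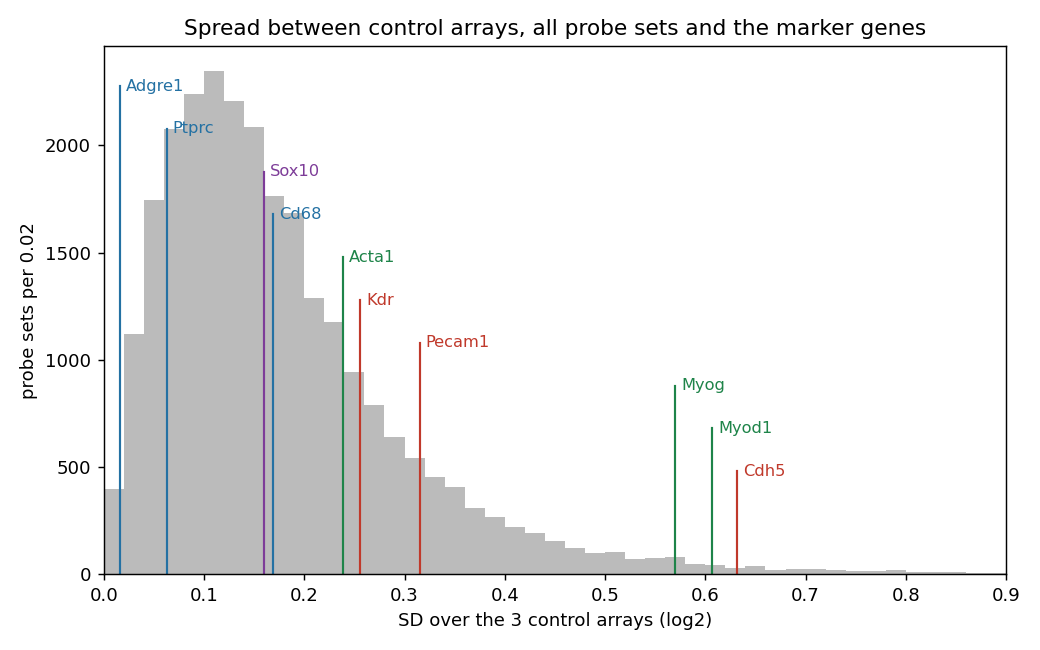
Standard deviation over the 3 control arrays (horizontal axis, log2) for all probe sets as grey bars (vertical axis, number per 0.02) and for the marker genes as coloured lines (red endothelium, blue immune, green muscle, purple *Sox10*). The height of a line carries no value. *Cdh5*, *Myod1* and *Myog* lie in the far right tail, and *Adgre1* and *Ptprc*, as deposited, to the left of the median of 0.15.

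The SD over the 3 controls was 0.63 for *Cdh5*, 0.61 for *Myod1* and 0.57 for *Myog*, exceeded by 0.990%, 1.19% and 1.58% of all probe sets. For the 10 members the median SD was 0.25, against 0.15 over all probe sets. The mean of the 2 arrays of a replicate ranged over 0.99 between replicates for *Cdh5*, 0.84 for *Myod1* and 0.66 for *Myog*, against a median of 0.20 over all probe sets.

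Among the 10 members *Ptprc* had the smallest range over the 6 arrays. It lay between 3.19 and 3.36 on the 6 arrays, below the median of each array. RMA can understate differences at low levels, so the narrow range is not read as stability. Its pair differences of -0.03, 0.06 and 0.04 gave a mean of 0.02 with a 95% interval of -0.18 to 0.23 (q = 0.826 in limma). The mean was 0.097 after quantile normalization, 0.080 after centring and 0.096 after cyclic loess, and pair 1 turned to 0.24, 0.15 and 0.22, so that the direction in pair 1 was not settled. *Adgre1* was at 4.40, 4.43 and 4.40 in the controls and at 4.43, 4.78 and 4.46 with Fc-Eda. This was the one member whose groups did not overlap, against 3.98% of all probe sets with every Fc-Eda array above every control and 5.11% with every one below. The separation was 0.00059 between Fc-Eda replicate 1 and control 2, and it was lost after quantile normalization, where control 2 was at 4.48 and Fc-Eda replicate 3 at 4.46. As deposited, pair 2 supplied most of the mean difference of 0.15 (q = 0.751 in limma), which was 0.04 without that pair. After cyclic loess normalization the mean was 0.22, and pairs 1, 2 and 3 gave 0.26, 0.33 and 0.06.

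*Cd68*, a lysosomal protein gene of macrophages that other cell types also express, was at 6.69, 6.54 and 6.36 in the controls and at 6.81, 6.84 and 6.42 with Fc-Eda. Both arrays of replicate 3 were the lowest, and the groups overlapped. The pair differences of 0.11, 0.30 and 0.06 averaged 0.16 ± 0.09 (SE, q = 0.751 in limma), and 0.087 without pair 2. Pair 1 gave 0.014 after quantile normalization, 0.023 after cyclic loess and 0.298 after centring. Unlike the endothelial genes, *Cd68* was 0.25 higher on control 1 than the mean of the other controls as deposited, and 0.082 higher after centring each array on its median. *Ptprc* and *Adgre1* differed there by -0.05 and -0.02 as deposited, and by -0.27 and -0.23 after cyclic loess normalization.

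The Fc-Eda array of replicate 2 held the highest value of 6 members, the endothelial genes, *Adgre1*, *Cd68* and *Sox10*. This was so in 12.1% of all probe sets, a share that tests nothing, since the pattern was read from the members. Pair 2 therefore had the highest endothelial values in both conditions and, on its control array, the highest muscle values. Over the 10 members the median difference between Fc-Eda and control was 0.15, and over all probe sets it was -0.02.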

How the data were processed

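Pools of E13.5 Eda-/- mammary buds, 3 per condition, were profiled on Mouse Exon 1.0 ST arrays of Affymetrix. The authors deposited log2 values for 25949 probe sets, 1 per array, and the submitters' processing notes name RMA. The version, the probe set definition and the genome build are not given in the sources used here. RMA pulls low signals together, which can understate differences of dim genes. No value was missing.

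Replicate numbers pair the arrays, because the 2 sides of the same embryos were divided between conditions. The deviations of paired arrays from their group means correlated with r = 0.079, 0.29 and 0.29. The whole table was fitted in limma 3.58.1 under R 4.3.3, the model holding a treatment effect and the pair as a block, and Storey q-values under 0.05 counted as passing. Alternatives were a fit without the block, limma with an intensity trend and robust moderation together, and a Cyber-T type test (window 101, prior weight 10). A plain paired t-test without moderation was run with and without Benjamini-Hochberg adjustment. Further settings were Benjamini-Hochberg adjustment in limma, a filter at the median level, quantile normalization, centring, cyclic loess and leaving out each pair.

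The members, lists and tests were chosen with earlier results of these data known. Names of the 10 members were given with their identifiers. All 10 are described. The plan of this work also took further genes of 9 marker lists, by size of difference, and genes of like pattern. Those lists, 119 genes beside the members, were not analysed here, because the reference table pairs 0 of the identifiers with a symbol.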

Additional observations from a re-analysis of the deposited data

How the results depend on the processing

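Of the 10 members, 0 passed the threshold as higher or lower in limma, and this held in all other settings with adjusted values. In a plain paired t-test at an unadjusted p under 0.05, 1 member, *Pecam1*, passed as higher, as did 802 of the 25949 probe sets. Over all probe sets limma called 0 higher and 0 lower. Counts higher and lower were 3 and 0 with no replicate block and 162 and 31 in the Cyber-T type test. An intensity trend and robust moderation together gave 90 and 6. The plain paired t-test gave 802 and 696 without adjustment, and 0 and 1 after Benjamini-Hochberg. The counts were 85 and 6 above the median level, and 56 and 1 after centring. Leaving out a replicate gave 0 to 10 higher and 0 to 1 lower. Benjamini-Hochberg in limma, quantile normalization and cyclic loess gave 0 and 0. The cause was not tested.

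Members higher in every pair numbered 6 as deposited, against 13.2% of all probe sets, and 7 after quantile normalization, centring or cyclic loess. The filter at the median level left 5, since it removed *Adgre1*. With a replicate left out, where 2 pairs suffice, they numbered 6 to 7. The share of all probe sets higher in every pair was not computed for these other settings. Members lower in every pair went from 0 to between 0 and 3 with a replicate left out, which leaves 2 pairs to meet, the 3 being the muscle genes without replicate 3, where 30.2% of all probe sets were lower in both pairs. Without replicate 3 the *Myog* difference was -0.54 (q = 0.441 in limma) and the *Myod1* difference -0.41 (q = 0.637 in limma), whereas without replicate 2 they were -0.07 and -0.04. Without replicate 1 *Myod1* reversed to 0.068, and the 3 omissions ranged from -0.41 to 0.068. The filter at the median level removed *Ptprc* and *Adgre1*. The control 1 difference kept its sign in all members but *Myod1*, which was 0.06 as deposited and -0.11 after centring. Centring took it to -0.44 in *Sox10*, 0.082 in *Cd68*, -0.31 in *Myog*, -0.18 in *Acta1* and *Adgre1* and -0.21 in *Ptprc*. Pairing changed no member's call at the q threshold, whereas *Kdr* and *Sox10*, past the unadjusted level with the replicate block, were not past it without the block. How far each value lies over background is unknown.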
